A study of Homo sapiens with 8 samples.

Results

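The genes described here encode the lysosome's own machinery: 39 genes, chosen from a fixed list of names, of 19785 protein-coding genes annotated on hg19 by GENCODE. They comprise 19 hydrolases, 6 membrane proteins, 12 genes of the v-ATPase, and 2 soluble cofactors, NPC2 and PSAP, which are neither enzymes nor membrane proteins and are counted apart. Each gene was described by the peak centre nearest to any of its protein-coding transcription start sites (TSS), by the peaks within 10 kb of a TSS, and by whether those peaks were shared between the cell lines. The genes were picked by name, with no threshold on a measured value, but with earlier results of these data known.

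Lysosomes break down proteins, glycans and lipids in an acidic lumen, and they are where autophagosomes deliver their cargo. The v-ATPase pumps the protons, membrane proteins such as LAMP1 and LAMP2 line the compartment, and the hydrolases do the digestion. Many of these genes are targets of TFEB, a transcription factor that binds an E-box known as the CLEAR element near their start sites. DAXX deposits the histone variant H3.3 and can repress transcription, and DNMT1 copies DNA methylation onto new strands.

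The study mapped DAXX, DNMT1 and H3(Lys4) by ChIP-Seq in PC3, a prostate cancer line derived from a bone metastasis. DAXX K/D cells were PC3 cells with a stable shRNA against DAXX kept under puromycin. WT cells were PC3 cells labelled wild type, which the study's text also calls shRNA controls. Each line gave 1 library per antibody and 1 input without immunoprecipitation, so there are 8 libraries in 8 groups, no replicates, and no test between K/D and WT cells is possible. The chromatin was crosslinked first with DSG (protein to protein) and then DNA to protein, and the prefix "DMH" that the labels put before H3(Lys4) is not explained there. The K/D line is 1 line, so a difference between the lines cannot be told apart from a difference between 2 libraries. The reduction of DAXX itself cannot be read from peak lists, and with no expression data the cell type was not checked against markers.

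The peak lists differed in length and depth. The DAXX lists held 42894 peaks in K/D cells and 59778 in WT cells, from 18210051 and 15208845 tags, of which 6.83% and 15.8% fell in peaks. The DNMT1 lists held 600 K/D and 2237 WT peaks, and the H3(Lys4) lists 72215 K/D and 72100 WT regions. The H3(Lys4) regions held 15.1% of K/D and 23.9% of WT tags and covered 64.4 Mb and 78.1 Mb. The K/D DAXX library was therefore sequenced more deeply than the WT library but gave fewer peaks, and the part of peak yield in the counts below was not tested.

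A DAXX peak lay within 10 kb of a TSS at 22 of the 39 genes in K/D cells (56.4%) and at 27 in WT cells (69.2%). Over all protein-coding genes the shares were 41.8% in K/D cells and 51.2% in WT cells. Within 1 kb the counts were 14 genes in K/D cells (35.9%) and 18 in WT cells (46.2%), against 19.2% and 25.7% of all genes. Lysosomal genes thus had DAXX peaks near their starts more often than the average gene in both lines, by counts alone. The median distance to the nearest DAXX peak was 7136 bp in K/D cells and 3907 bp in WT cells, against 15474 bp and 9219 bp over all genes.

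Genes whose starts carry H3(Lys4) had DAXX peaks more often in general. Among the 31 lysosomal genes that had a TSS at most 1 kb from the edge of a WT H3(Lys4) region, 19 had a K/D DAXX peak (61.3%) and 23 a WT DAXX peak (74.2%) within 10 kb. The 11488 genes of that kind in the genome had them at 52.8% in K/D cells and 64.7% in WT cells. Within 1 kb the counts were 13 K/D and 17 WT genes of the 31 (41.9% and 54.8%), against 27.5% and 37.1% of such genes. The gap to the background at 10 kb was thus smaller than over all genes, while the gap at 1 kb was nearly as wide.

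The shares varied by class, but the classes are small and differences between them were not tested. Of the 19 hydrolases, 12 had a K/D DAXX peak and 15 a WT DAXX peak within 10 kb, and 9 and 12 had one within 1 kb. Of the 6 membrane proteins, 4 and 5 had one within 10 kb and 2 and 3 within 1 kb. Of the 12 v-ATPase genes, 4 had a K/D peak and 5 a WT peak within 10 kb (33.3% and 41.7%), and 2 and 3 within 1 kb. At 12 genes these counts are near the background at both distances, so no deficit is read from them. The hydrolase shares at 10 kb were 63.2% in K/D cells and 78.9% in WT cells, against 41.8% and 51.2% of all genes.

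**Figure D1:**
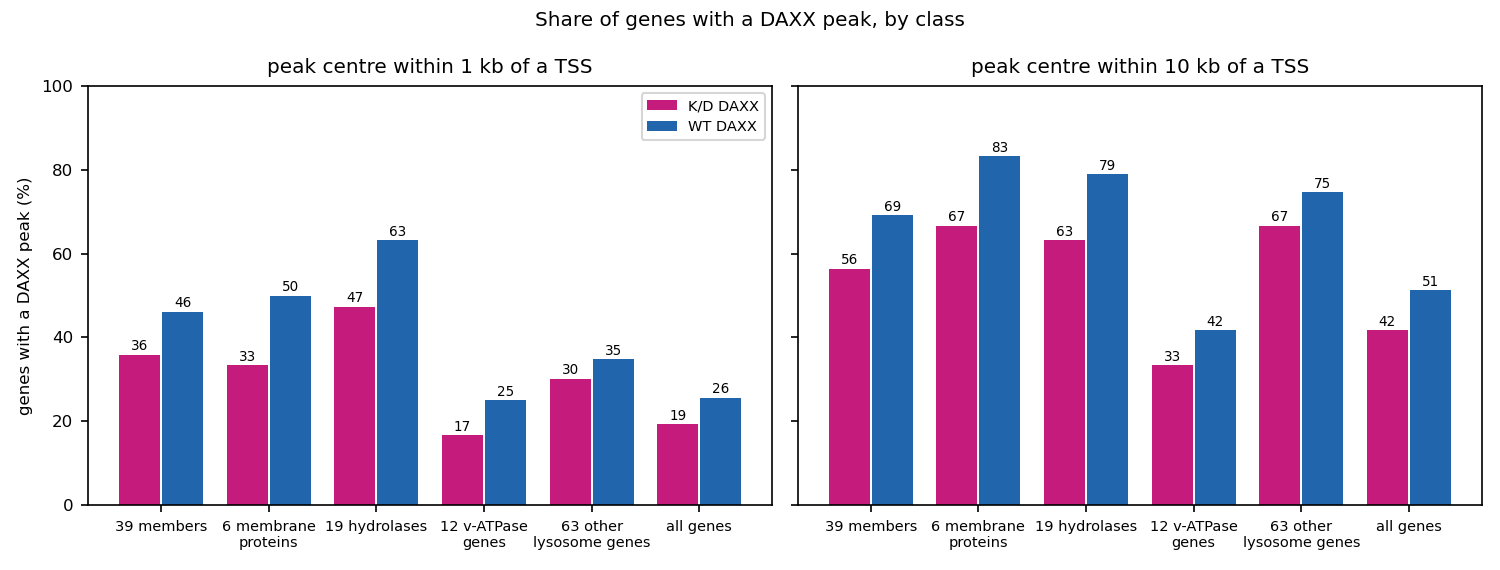
Bars give the percent of genes with a DAXX peak centre within 1 kb (left panel) or 10 kb (right panel) of a TSS, K/D left of WT, for the 39 genes, their 3 main classes, 63 other lysosome genes and all 19785 genes. At 10 kb the v-ATPase bars (33.3% and 41.7%, 12 genes) lie somewhat below those of all genes, which at so few genes is near the background. The hydrolase bars lie above those of all genes.

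The 63 lysosome genes outside the set came from a wider list of the same 3 classes. A DAXX peak lay within 10 kb at 42 of them in K/D cells (66.7%) and at 47 in WT cells (74.6%), and within 1 kb at 19 and 22. Among them 21 and 22 of 30 hydrolases, 12 and 16 of 20 membrane proteins, and 9 and 9 of 13 v-ATPase genes had a K/D and a WT peak within 10 kb. At 10 kb the other 13 v-ATPase genes thus stood at 69.2% in both lines, against 33.3% and 41.7% of the 12. Within 1 kb 2 of those 13 had a DAXX peak in each line (15.4%), no higher than among the 12.

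DAXX peaks with an E-box lay at the starts of several of these genes, and their sequences show what the peaks contain. The E-box searched was CACGTG, and its longer TFEB-type form was TCACGTGA, which contains it. Both were searched on both strands. Each sequence below is the longest stretch of the peak outside annotated UTRs (hg19, plus strand), and capitals mark E-boxes and the ETS motif CCGGAAG (complement CTTCCGG) where they occur.
GAA start, K/D DAXX peak, chr17:78075253-78075331 (+ strand): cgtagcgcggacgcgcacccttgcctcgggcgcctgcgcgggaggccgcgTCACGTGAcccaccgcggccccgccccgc
CD63 start, K/D DAXX peak, chr12:56122919-56123065 (+ strand): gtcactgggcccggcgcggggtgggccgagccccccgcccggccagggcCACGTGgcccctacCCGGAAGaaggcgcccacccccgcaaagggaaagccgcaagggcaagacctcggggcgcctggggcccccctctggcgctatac
CTSD start, WT DAXX peak, chr11:1785185-1785265 (+ strand): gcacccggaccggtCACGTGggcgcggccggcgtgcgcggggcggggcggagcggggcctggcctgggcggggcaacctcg
The GAA peak holds the TFEB-type form, and the others the plain E-box. GAA is acid alpha-glucosidase, the lysosomal enzyme that breaks down glycogen, CD63 is a tetraspanin of late endosomes, and CTSD is an aspartic protease.

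An E-box was present in 7 of the 40 K/D DAXX peaks within 10 kb of these genes (17.5%) and in 6 of the 58 WT peaks (10.3%). Over all peaks within 10 kb of any gene the shares were 3.43% of K/D peaks and 3.31% of WT peaks. Within 1 kb they were 6 of 18 K/D peaks and 4 of 26 WT peaks, against 5.68% and 5.62%. The K/D peaks were at ATP6V1A, CTSA, CD63, GAA, CTSD, SGSH and in NAGLU. The WT peaks were at CD63, GAA, CTSD and SGSH, in NAGLU and near ATP6V0B. The ATP6V1A and CTSA peaks were shared, but the overlapping WT peaks were slightly shifted and did not hold the E-box. The member peaks were also richer in G and C, with a median GC content of 56.4% in K/D and 56.6% in WT cells, against 50.9% in both lists over all genes' peaks. The part of GC content in the E-box share was not tested.

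E-boxes also occurred in promoters that had no DAXX peak. The 300-bp window from 250 bp upstream to 50 bp downstream of the canonical start held CACGTG in 16 of 39 promoters (41.0%), against 10 of the 63 other lysosome genes (15.9%) and 8.73% of all promoters. TCACGTGA was in 7 (LAMP1, MCOLN1, CTSA, GAA, HEXA, ATP6V0D1 and ATP6V1H; 17.9%), against 6 of the 63 (9.52%) and 1.45%. The median GC content of the promoters was 68.7%, against 63.7% for all promoters. An E-box occurred in 7 of the 18 promoters with a WT DAXX peak within 1 kb and in 9 of the other 21, which are similar shares. LAMP1 (lysosome-associated membrane protein), MCOLN1 (a lysosomal calcium channel), HEXA (a subunit of hexosaminidase A), ATP6V0D1 (a v-ATPase V0 subunit) and ATP6V1H (a V1 subunit) had TCACGTGA without a DAXX peak within 1 kb. The promoter stretches of LAMP1, MCOLN1 and ATP6V0D1 outside UTRs follow on the gene's strand, with E-boxes and the ETS motif in capitals.
LAMP1 promoter, chr13:113951304-113951553 (+ strand): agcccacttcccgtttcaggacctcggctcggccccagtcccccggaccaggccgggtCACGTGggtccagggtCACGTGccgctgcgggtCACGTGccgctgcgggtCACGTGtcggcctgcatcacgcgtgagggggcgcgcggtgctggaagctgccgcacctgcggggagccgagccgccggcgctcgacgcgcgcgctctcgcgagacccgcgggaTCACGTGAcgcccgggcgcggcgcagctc
MCOLN1 promoter, chr19:7587260-7587509 (+ strand): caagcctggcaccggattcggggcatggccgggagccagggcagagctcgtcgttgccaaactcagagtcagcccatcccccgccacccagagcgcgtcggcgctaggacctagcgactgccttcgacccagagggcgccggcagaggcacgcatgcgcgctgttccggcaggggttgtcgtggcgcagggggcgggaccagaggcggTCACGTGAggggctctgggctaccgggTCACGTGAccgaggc
ATP6V0D1 promoter, chr16:67515085-67515310 (- strand): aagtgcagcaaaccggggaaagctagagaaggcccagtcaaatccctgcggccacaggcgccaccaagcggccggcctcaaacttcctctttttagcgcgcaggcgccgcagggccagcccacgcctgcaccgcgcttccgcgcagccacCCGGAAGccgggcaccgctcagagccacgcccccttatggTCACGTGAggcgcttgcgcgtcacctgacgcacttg
The LAMP1 stretch holds 5 E-boxes, of which 1 is TCACGTGA, and the MCOLN1 stretch holds 2 of the TFEB-type form. The presence of a motif is a description of these letters and not of a factor bound there.

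Of the other motifs, the AP-1 site TGACTCA (complement TGAGTCA) was in 12 of 40 K/D peaks and 13 of 58 WT peaks near these genes, against 26.5% and 26.8% over all genes' peaks. In peaks 1 to 10 kb away it was in 10 of 22 K/D and 11 of 32 WT peaks, against 34.8% and 34.9%. CCGGAAG was in 4 of 18 K/D and 6 of 26 WT peaks within 1 kb, against 10.0% and 9.97%. The GC box GGGCGG, the letters of SP1-type sites, was in 7 of 18 K/D and 17 of 26 WT peaks within 1 kb, against 41.5% and 43.1%. Below are an intergenic peak upstream of CTSD and one upstream of PSAP, each with 2 AP-1 sites, the NAGLU intron peak with an E-box and an AP-1 site, and the ATP6V1D start peak with the ETS motif (same marking, AP-1 included, UTR bases left out).
CTSD upstream, K/D DAXX peak, chr11:1793866-1794036 (+ strand): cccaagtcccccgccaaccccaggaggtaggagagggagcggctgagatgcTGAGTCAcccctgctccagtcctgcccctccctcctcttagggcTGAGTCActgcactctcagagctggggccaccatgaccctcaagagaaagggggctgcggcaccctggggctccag
PSAP upstream, K/D DAXX peak, chr10:73620304-73620474 (+ strand): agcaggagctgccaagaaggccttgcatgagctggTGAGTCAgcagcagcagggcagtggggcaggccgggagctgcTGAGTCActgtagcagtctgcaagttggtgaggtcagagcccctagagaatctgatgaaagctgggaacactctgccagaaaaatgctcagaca
NAGLU intron, K/D DAXX peak, chr17:40693335-40693505 (+ strand): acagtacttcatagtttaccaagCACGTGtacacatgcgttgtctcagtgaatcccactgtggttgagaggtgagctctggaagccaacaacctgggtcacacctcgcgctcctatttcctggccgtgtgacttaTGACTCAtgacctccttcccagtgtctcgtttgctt
ATP6V1D start, K/D DAXX peak, chr14:67826578-67826658 (+ strand): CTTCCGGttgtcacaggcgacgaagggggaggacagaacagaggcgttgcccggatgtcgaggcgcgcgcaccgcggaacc

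Among the membrane proteins, CD63, LAMP2 and NPC1 had the nearest WT DAXX peaks. CD63 had 3 K/D and 5 WT DAXX peaks within 10 kb, the most of any of the genes in both lines together, and its nearest K/D peak was 211 bp and its nearest WT peak 246 bp from a TSS, both upstream. The start peak lay early in both lists, at 12.7% of the K/D list and 10.6% of the WT list counted from the top. The start peak overlapped an H3(Lys4) region in both lines. The nearest H3(Lys4) centres of CD63 were 72 bp (K/D) and 35 bp (WT) from another of its starts, with 3 and 6 regions within 10 kb. Its nearest DNMT1 peaks were 99923 bp and 2022972 bp away. The CD63 peaks 5733 bp (K/D) and 5677 bp (WT) downstream of a TSS are nearer to a start of RDH5, at 913 bp and 969 bp.

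LAMP2, the membrane protein with an isoform that serves chaperone-mediated autophagy, had a peak at its start in WT cells alone. Its nearest DAXX peak was 12223 bp away in K/D cells and 25 bp in WT cells, and that WT peak stood at 70.5% of its list. The H3(Lys4) centre was at 2724 bp in K/D cells and 1182 bp in WT cells, with 577 bp and 2133 bp covered within 10 kb. Its nearest DNMT1 peaks lay 42410166 bp and 2402150 bp away.

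NPC1, which exports cholesterol from the lysosome with NPC2, had 3 DAXX peaks within 10 kb in each line, the nearest at 412 bp in K/D cells and 401 bp in WT cells, both upstream. H3(Lys4) centres lay at 866 bp and 940 bp, with 5 and 3 regions, and DNMT1 peaks at 8785940 bp and 65006 bp. All 3 K/D DAXX peaks and all 3 WT peaks were shared. SCARB2, the receptor that carries glucocerebrosidase to lysosomes, had a pair of shared peaks in each line, at 5106 bp and -5646 bp in K/D cells and 5076 bp and -5635 bp in WT cells (negative means upstream). MCOLN1 had 1 shared peak, 7136 bp (K/D) and 7146 bp (WT) downstream and nearer to PNPLA6. LAMP1 was the membrane protein farthest from DAXX, at 21705 bp (K/D) and 21681 bp (WT), with H3(Lys4) centres at 983 bp and 5021 bp and DNMT1 peaks at 12665521 bp and 2799550 bp.

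The soluble cofactors were the 2 genes of the 39 with more DAXX peaks within 10 kb in K/D than in WT cells, against 10.4% of all genes. PSAP, the precursor of the saposins that present lipids to hydrolases, had a K/D peak at -251 bp with no WT peak on it, beside a shared peak at -9381 bp (K/D) and -9371 bp (WT). It was the only gene of the 39 with a DAXX peak within 1 kb in K/D cells and none in WT cells, against 5.57% of all genes. NPC2, the luminal cholesterol carrier, had 3 K/D peaks, at 1218 bp, 4198 bp and 6088 bp, and 2 WT peaks, at 4190 bp and 6078 bp. H3(Lys4) centres lay at 1922 bp and 1492 bp from PSAP and at 6212 bp and 634 bp from NPC2 in K/D and WT cells. Their DNMT1 peaks were 994535 bp and 1020873 bp (PSAP) and 765905 bp and 683353 bp (NPC2) away.

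**Figure D2:**
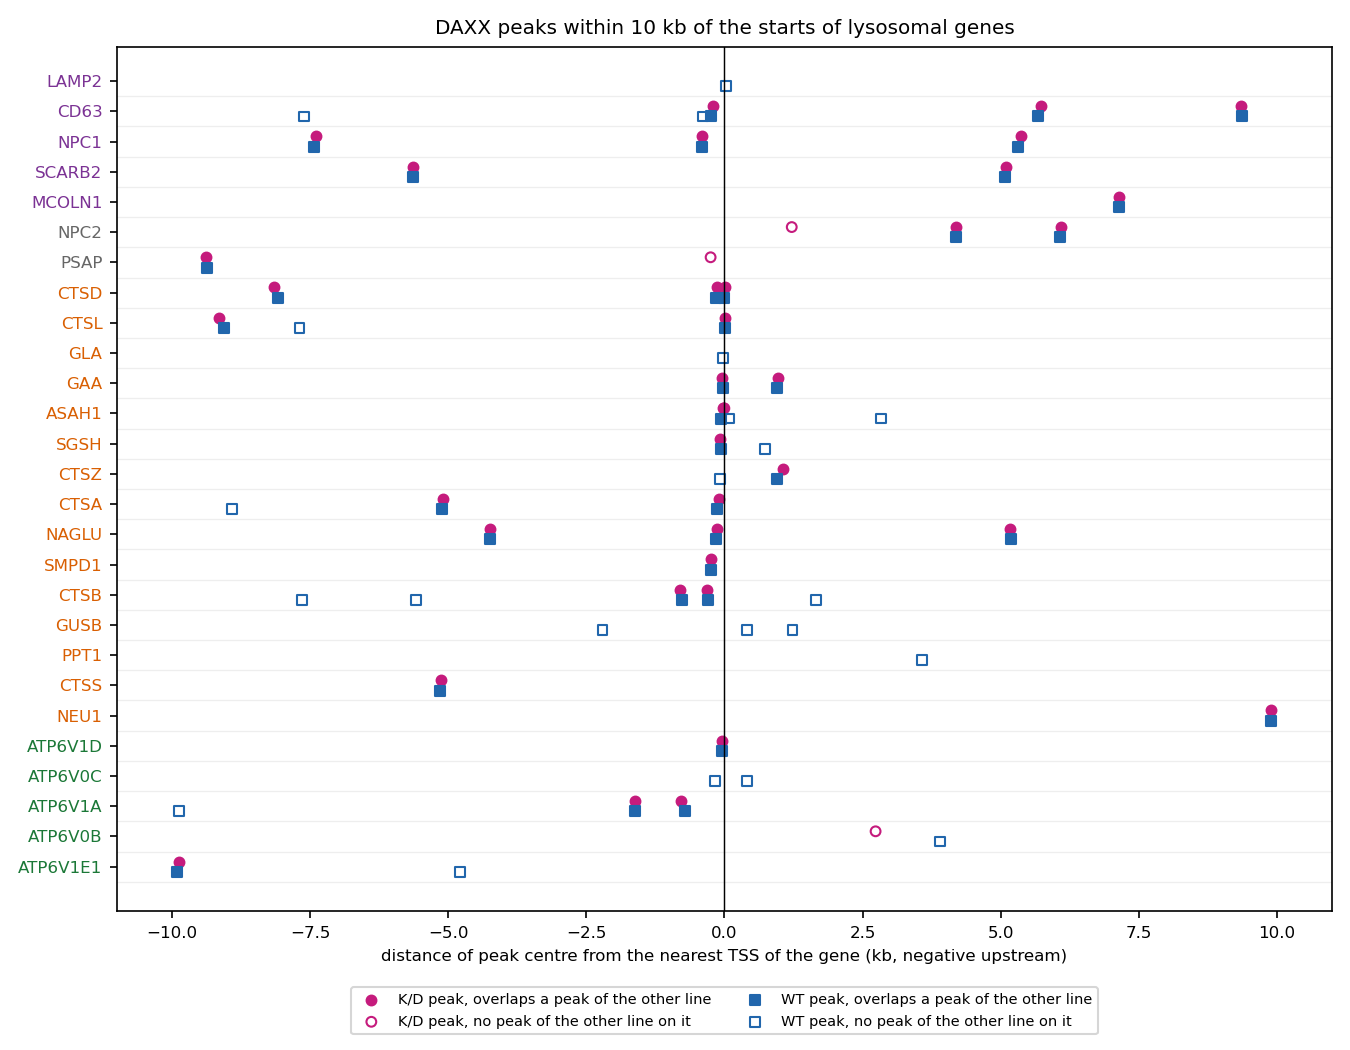
DAXX peaks within 10 kb of the TSS (x axis in kb from the nearest start, negative upstream) are shown for the genes with any, K/D circles above WT squares, with filled symbols where a peak of the other line overlaps. Filled pairs predominate, open squares mark WT peaks without a K/D peak (22 in all), and open circles mark the 4 K/D peaks without a WT peak.

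Among the hydrolases, CTSD and CTSL had the WT DAXX peak centres nearest to a start. CTSD, an aspartic protease, had a K/D peak at 3 bp and a WT peak at -1 bp. Intron peaks lay at -127 bp (K/D) and -149 bp (WT) from another of its starts. Intergenic peaks lay at -8148 bp (K/D) and -8092 bp (WT). All of these CTSD peaks were shared. The -127 bp peak lay at 8.89% of the K/D list and its WT counterpart at 8.28% of the WT list. CTSL, a cysteine protease, had its nearest peaks 1 bp (K/D) and 3 bp (WT) from a TSS, with 2 K/D and 3 WT peaks in all. H3(Lys4) centres were at 581 bp and 12 bp (CTSD) and at 684 bp and 258 bp (CTSL) in K/D and WT cells, and DNMT1 peaks at 4454825 bp and 6953712 bp (CTSD) and 1596575 bp and 6094402 bp (CTSL).

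CTSB, a cysteine protease with 28 annotated starts, had 2 K/D and 5 WT DAXX peaks within 10 kb. The 2 shared peaks lay in introns of CTSB, each upstream of the alternative start nearest to it. The nearer was 323 bp from such a start in K/D cells and 306 bp in WT cells. The 3 WT peaks with no K/D peak on them stood at 88.3%, 88.4% and 97.0% of the WT list. Its H3(Lys4) centres lay at 66 bp and 20 bp, with 3 and 6 regions, and its DNMT1 peaks at 55648611 bp and 1201369 bp. NAGLU, a glycosidase of heparan sulfate breakdown, had 3 peaks in each line, all shared, at -143 bp, -4251 bp and 5161 bp in K/D cells and -148 bp, -4240 bp and 5185 bp in WT cells. Its H3(Lys4) centres were 4790 bp and 690 bp away and its DNMT1 peaks 3070819 bp and 454227 bp.

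No gene had a DAXX peak within 10 kb in K/D cells alone, and 5 had one in WT cells alone, namely LAMP2, GLA, GUSB, PPT1 and ATP6V0C. Over all genes 6.36% had one in K/D cells alone and 15.8% in WT cells alone, so the count of 5 is near the background. GLA, alpha-galactosidase A, had its nearest DAXX peak at 22966 bp in K/D cells and 23 bp in WT cells. GUSB, beta-glucuronidase, had none nearer than 35112 bp in K/D cells, against 3 WT peaks with the nearest at 414 bp. PPT1, which removes palmitate from proteins, had its nearest peak at 40982 bp in K/D cells and 3570 bp in WT cells. ATP6V0C, the proteolipid of the proton channel, had it at 10872 bp in K/D cells and 166 bp in WT cells, with 2 WT peaks. These 8 WT peaks stood between 58.9% and 96.8% of the way down the WT list. With the WT list cut to the length of the K/D list, 22 genes had a WT peak within 10 kb, as many as in K/D cells. They were not the same genes. LAMP2 and GLA kept their WT peaks, while MCOLN1 and ATP6V0B, which have K/D peaks, lost theirs.

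The H3(Lys4) regions of these genes did not follow one direction. The centre was at 1028 bp in K/D cells and 842 bp in WT cells for GLA, 30010 bp and 340 bp for GUSB, 115 bp and 2984 bp for PPT1, and 444 bp and 525 bp for ATP6V0C. GUSB alone had no region within 10 kb in K/D cells. Their DNMT1 peaks were 23469906 bp and 3554736 bp (GLA), 10417988 bp and 1061153 bp (GUSB), 2544922 bp and 286369 bp (PPT1) and 72843084 bp and 478179 bp (ATP6V0C) away in K/D and WT cells.

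Further hydrolase starts carried shared DAXX peaks. GAA had them at -37 bp (K/D) and -29 bp (WT), SGSH (a sulfatase of heparan sulfate breakdown) at -76 bp and -68 bp, CTSA (a serine carboxypeptidase that protects GLB1 and NEU1) at -107 bp and -132 bp, and SMPD1 (acid sphingomyelinase) at -249 bp and -238 bp. ASAH1, acid ceramidase, had shared peaks at -22 bp (K/D) and -63 bp (WT). Its unshared peaks lay at -2 bp (K/D) and at 83 bp and 2833 bp (WT), each measured from another of its starts. CTSZ, a carboxypeptidase, had a shared intron peak at 1057 bp (K/D) and 953 bp (WT) and an unshared WT peak at -80 bp. CTSS had 1 shared upstream peak, 5135 bp (K/D) and 5157 bp (WT) away, and NEU1, the sialidase, 1 at 9899 bp and 9898 bp. GLB1 (beta-galactosidase), TPP1 (a peptidase), CTSK (the collagenase of osteoclasts) and HEXA had no DAXX peak within 10 kb in either line, and HEXA was the farthest in WT cells, at 22516 bp in K/D cells and 99001 bp in WT cells. HEXA's H3(Lys4) centres were 55752 bp and 55484 bp away and its DNMT1 peaks 1096252 bp and 928481 bp.

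Some of these starts face a neighbour. The CTSA peak was 7 bp (K/D) and 18 bp (WT) from a start of NEURL2, and the SGSH peak 13 bp and 21 bp from a start of SLC26A11, each nearer than the lysosomal gene's own start. Of all DAXX peaks within 10 kb, 29 of 40 in K/D cells and 43 of 58 in WT cells had a lysosomal gene as the nearest of all protein-coding starts. By position 19 of the 40 K/D and 24 of the 58 WT peaks lay in a promoter (of any gene, 1000 bp upstream to 100 bp downstream), 12 and 20 in an intron, and 7 and 12 were intergenic. The ATP6V1D start peaks of both lines also lay in a promoter of EIF2S1, and the WT peak at the GLA start in one of HNRNPH2.

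ATP6V1D, ATP6V0C and ATP6V1A were the v-ATPase genes nearest to DAXX in WT cells. ATP6V1D, a subunit of the central stalk, had 1 peak in each line, at -52 bp in K/D cells and -48 bp in WT cells, which stood at 9.26% of the K/D list and at 3.28% of the WT list, the earliest place of any WT peak near these genes. Its H3(Lys4) centres were at 2158 bp and 1326 bp, and its DNMT1 peaks at 172493 bp and 49772 bp. ATP6V1A, the catalytic subunit, had 2 K/D and 3 WT DAXX peaks, the nearest at -785 bp and -709 bp, but that peak was 1 bp (K/D) and 26 bp (WT) from a start of NAA50. It had H3(Lys4) centres at 1633 bp and 860 bp and DNMT1 peaks at 62099 bp and 62072 bp.

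The ATP6V0B peaks, 2736 bp (K/D) and 3907 bp (WT) from its start, did not overlap each other and were nearer to B4GALT2. The shared ATP6V1E1 peak, at -9881 bp and -9906 bp, was 46 bp and 71 bp from a start of BCL2L13. Of the v-ATPase genes with a DAXX peak in range, therefore, ATP6V1D and, in WT cells, ATP6V0C had one nearer to their own start than to another gene's within 1 kb. The remaining 7, ATP6V0A1, ATP6V0D1, ATP6V0E1, ATP6V1B2, ATP6V1C1, ATP6V1H and ATP6AP1 (an accessory subunit), had none within 10 kb in either line. Farthest in WT cells was ATP6V0D1, at 81038 bp in K/D cells and 82815 bp in WT cells, with H3(Lys4) centres at 624 bp and 872 bp and DNMT1 peaks at 7897024 bp and 1591474 bp.

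**Figure D3:**
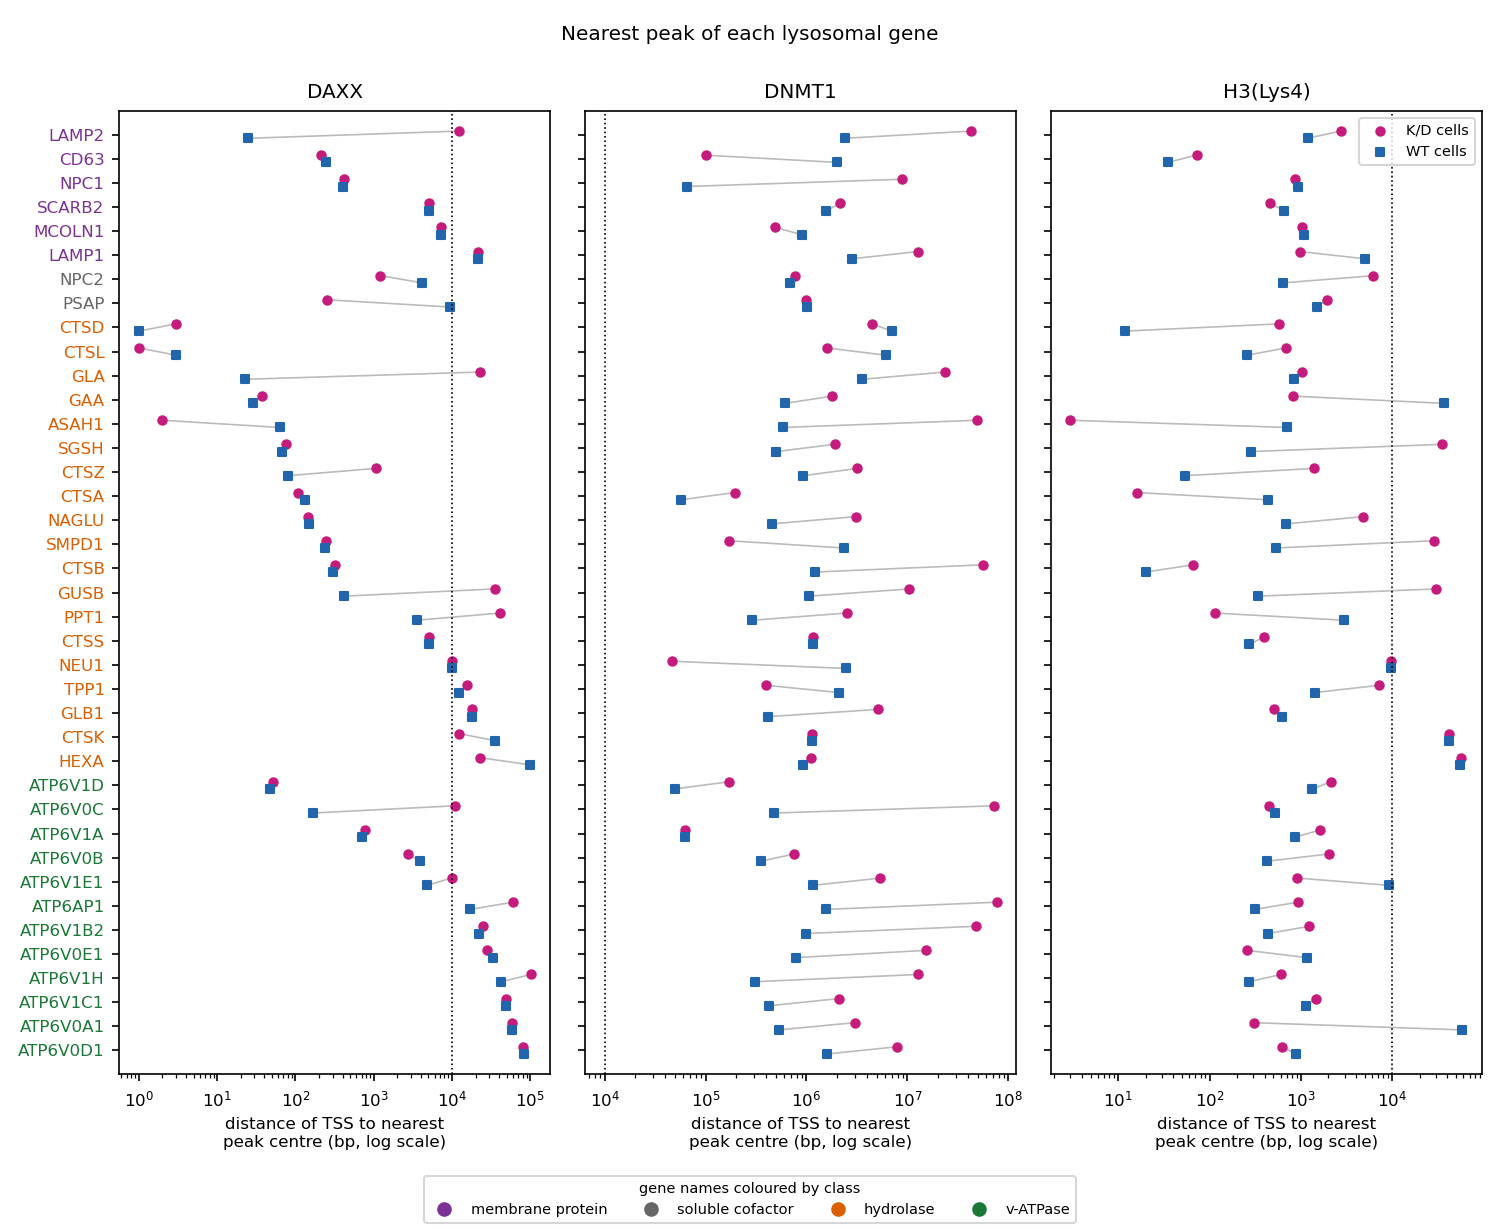
Distance in bp (log scale) between the nearest peak centre and a TSS for all 39 genes, with K/D circles above WT squares, for DAXX, DNMT1 and H3(Lys4), and a dotted line at 10 kb. DAXX distances reach from 1 bp to beyond 10 kb, every DNMT1 distance exceeds 10 kb, and most H3(Lys4) centres lie nearer than 10 kb.

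No DNMT1 peak lay within 10 kb of any of the 39 genes. The count was 0 of 39 in K/D cells and 0 of 39 in WT cells, each of which allows a share of up to 7.69%, against 0.89% and 2.55% of all genes. At those background shares few or no genes of a list this short would carry a peak, so nothing about these genes is read from the count. The median distance was 2544922 bp in K/D cells and 930137 bp in WT cells, against 2306191 bp and 588758 bp over all genes. The closest DNMT1 peaks were 46202 bp from NEU1 in K/D cells and 49772 bp from ATP6V1D in WT cells. Among the 63 other lysosome genes only CTSC, the peptidase that activates serine proteases, had a DNMT1 peak within 10 kb, at 1297 bp in WT cells and none nearer than 2057609 bp in K/D cells. None of the 40 K/D and 58 WT DAXX peaks overlapped a DNMT1 peak of the same line, against 0.423% of K/D and 1.57% of WT DAXX peaks near any gene, which is near the background.

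DAXX peaks near the lysosomal genes were mostly shared between the lines. Of the 40 K/D peaks, 36 overlapped a WT peak by at least 1 bp (90.0%, exact 95% interval 76.3 to 97.2%), against 66.6% of K/D peaks near any gene. Of the 58 WT peaks, 36 overlapped a K/D peak (62.1%, 48.4 to 74.5%), against 46.1%. The intervals cover counting error only. The K/D peaks near these genes also stood earlier in their list, at a median of 33.1% of the way down, against 49.5% for K/D peaks near any gene, and the WT peaks at 44.4%, against 51.5%.

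Sharing fell along both lists when each was divided into 4 parts of 25% in deposited order. In the first part of the K/D list 15 of 16 peaks near lysosomal genes were shared, against 94.9% near any gene, and in the last part 4 of 5, against 36.9%. In the first part of the WT list 17 of 20 were shared, against 80.2%, and in the last part 1 of 12, against 17.95% near any gene. In the parts between, 10 of 11 and 7 of 8 K/D peaks were shared, against 76.6% and 57.3%, and 11 of 13 and 7 of 13 WT peaks, against 55.1% and 33.7%. With so few peaks per part the counting intervals are wide, and in each part of both lists they included the share near any gene. The last part held 11 of the 22 unshared WT peaks.

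**Figure D4:**
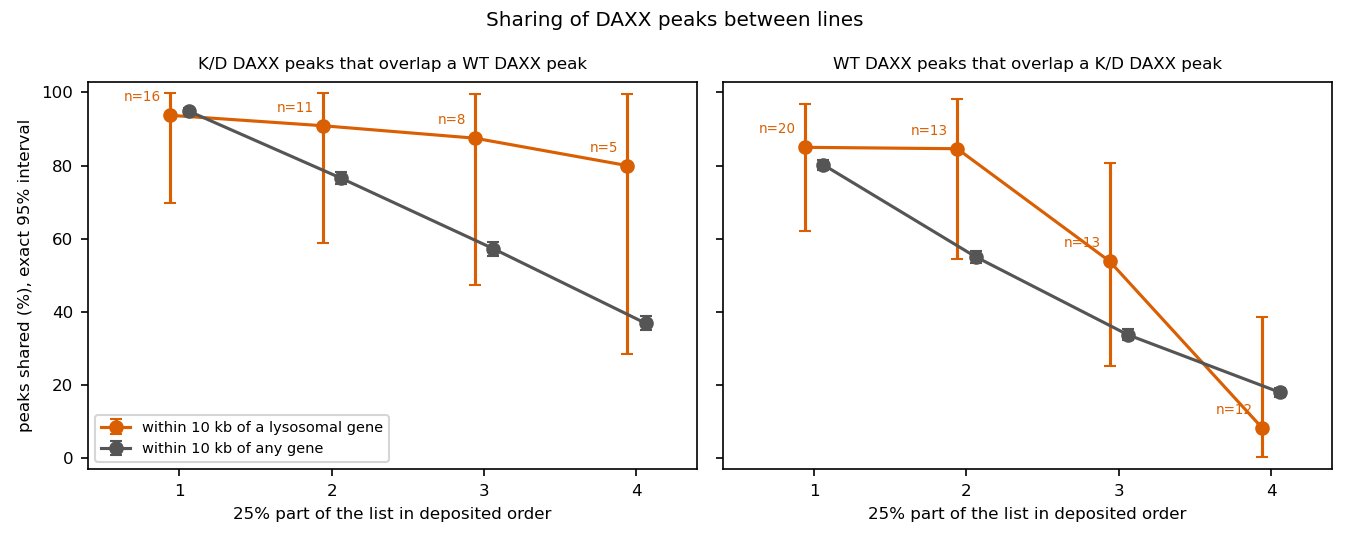
Percent of DAXX peaks within 10 kb of a TSS that overlap a peak of the other line, by 25% part of the deposited list, for K/D peaks (left panel) and WT peaks (right panel). Orange points are peaks near lysosomal genes with their number, grey points peaks near any gene, and bars exact 95% intervals. The WT share near lysosomal genes was 85.0% in the first part and 8.33% in the last.

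H3(Lys4) regions were near most of these genes in both lines. A region centre lay within 10 kb at 34 genes in K/D cells (87.2%) and 35 in WT cells (89.7%), against 70.4% and 71.3% of all genes. The edge of a region lay within 1 kb at 28 genes in K/D cells and 31 in WT cells, against 55.1% and 58.1%. All 12 v-ATPase genes in K/D cells and 11 in WT cells had a region centre within 10 kb. A region edge lay within 1 kb of a TSS at 12 of the v-ATPase genes in K/D cells and 10 in WT cells, and a TSS lay inside a region at 3 and 4 of them.

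The lines differed at single genes. GAA had an H3(Lys4) centre at 822 bp in K/D cells and none nearer than 37195 bp in WT cells, and ATP6V0A1, a v-ATPase V0 subunit, one at 304 bp in K/D cells and none nearer than 58434 bp in WT cells. The opposite held for SGSH (35068 bp in K/D cells, 283 bp in WT cells), SMPD1 (28459 bp and 536 bp) and GUSB. CTSK and HEXA had none within 10 kb in either line. GAA and SGSH, which kept the DAXX peak at the start in both lines, thus differed in opposite directions in H3(Lys4).

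The length covered by H3(Lys4) regions within 10 kb of the canonical start was lower in K/D cells at 18 genes, higher at 18 and equal at 3. Over all genes it was lower in K/D cells at 49.3% and higher at 27.8%, with 4515 of 19785 genes equal. Of the 31 genes with a WT region edge within 1 kb, 18 were lower in K/D cells (58.1%), against 72.4% of such genes. Those genes were chosen by their WT regions. The covered length of the 39 genes had a median of 2070 bp in K/D cells and 2366 bp in WT cells, against 1140 bp and 1556 bp over all genes. It was higher in K/D cells at 4 of 6 membrane proteins, 7 of 19 hydrolases and 7 of 12 v-ATPase genes. The widest covers were 7046 bp in K/D cells at NPC1, against 4977 bp in WT cells, and 7582 bp in WT cells at ATP6V1A, against 4460 bp in K/D cells.

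**Figure D5:**
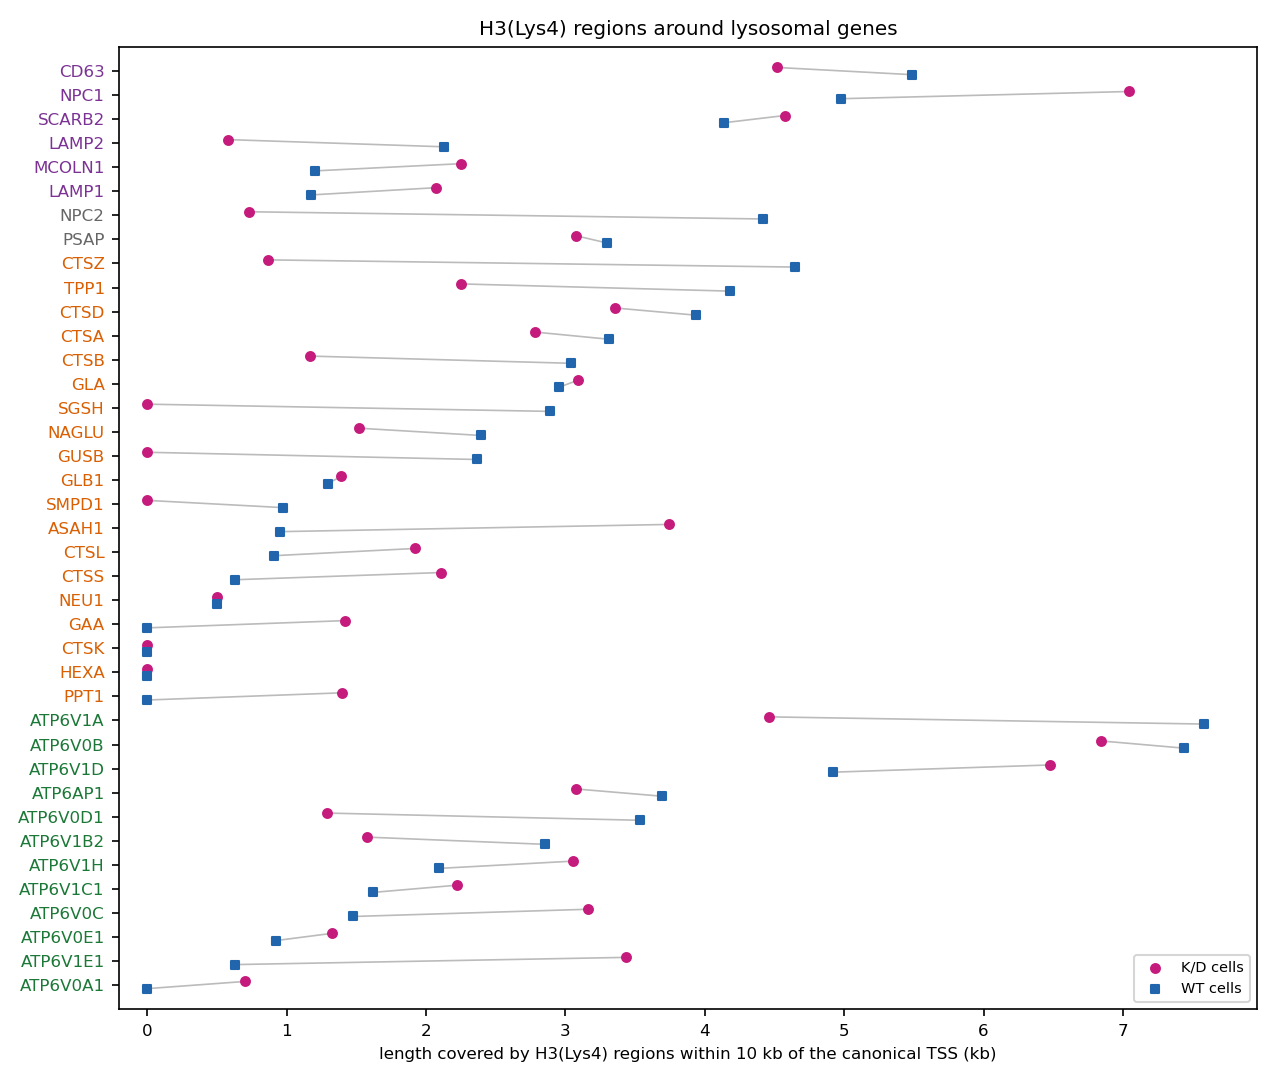
Length in kb covered by H3(Lys4) regions within 10 kb of the canonical TSS, per gene, with K/D circles above WT squares. K/D and WT points cross over in order from gene to gene, with 18 genes higher in each line and 3 equal.

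Of the H3(Lys4) regions near these genes, 44 of 65 in K/D cells (67.7%) and 47 of 76 in WT cells (61.8%) overlapped a region of the other line, against 62.8% and 58.1% of regions near any gene, close to the background. Of the DAXX peaks near these genes, 15 of 40 in K/D cells overlapped a K/D H3(Lys4) region (37.5%, exact 95% interval 22.7 to 54.2%), against 33.3% near any gene. In WT cells it was 18 of 58 (31.0%, 19.5 to 44.5%), against 45.8%. Shared DAXX peaks at the starts of CTSL, GAA, SMPD1, NPC1, NAGLU and ATP6V1D, among others, did not overlap an H3(Lys4) region of either line. At CTSL and GAA a K/D region began close downstream of the K/D peak.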

How the data were processed

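ChIP-Seq peak lists of PC3 cells were analysed for 6 immunoprecipitations, and the 2 inputs were used only as the authors' background. Per the submitters' processing notes, reads were handled with CASAVA 1.8.2, aligned to hg19 with Bowtie2 2.1.0, and peaks called with HOMER 4.6. The deposited headers give a 4-fold and Poisson p of 1.00e-04 minimum over input. The deposited score column holds 1 for every peak, so no peak height was used. Place in a list means the deposited order, whose meaning the files do not state. A total of 113 peaks on other contigs were left out.

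Distances ran from the peak centre to the nearest of 63781 start sites of basic protein-coding transcripts (GENCODE 44 on hg19), merged by symbol to 19785 genes. Windows were 10 kb and 1 kb, and sharing meant an overlap of at least 1 bp. Calculations used Python 3.11.15, numpy 2.4.6, pandas 2.3.3 and scipy 1.17.1, and plots matplotlib 3.10.9. Distance and overlap functions were tested on simulated peaks. Motifs were exact matches in hg19. With 1 library per group no test was run, and shares are set beside those of all genes. Intervals are exact binomial at 95%, and a count of 0 is read as at most 3.

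The gene list and the other lists were chosen with earlier results of these data known. Every gene is named. Full values are given in each class for the 3 genes nearest to and the 1 farthest from a WT DAXX peak, for those whose DAXX presence differed, and for the 3 with the most DAXX peaks (5 with ties). Alternatives were other windows, distance to the edge, 1 start per gene, the first 50% of a list, equal list lengths and other overlap rules. Some sequences are not reported here.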

Additional observations from a re-analysis of the deposited data

How the results depend on the processing

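Of 74 values under other settings, 14 moved beyond the limit set for a change (1.5 times for a count, the interval of the reported value for a median or share) and 60 did not. The number of genes with a K/D DAXX peak was 14 at 1 kb and 35 at 50 kb, and with a K/D H3(Lys4) centre at 1 kb it was 20. At 50 kb, 1 gene had a DNMT1 peak in K/D cells and 1 in WT cells. With the first 50% of each list the median distance was 18194 bp for K/D DAXX and 10421 bp for WT DAXX, and 6135413 bp for K/D DNMT1 and 1270778 bp for WT DNMT1 (the K/D values lie within or at the limits of wide intervals), and with the WT DNMT1 list cut to the K/D length it was 2478910 bp. Measured to the region edge, the median H3(Lys4) distance was 231 bp in K/D cells and 51 bp in WT cells. The share of H3(Lys4) regions shared was 10.8% (K/D) and 9.21% (WT) with centres within 100 bp, and 38.5% and 32.9% with 50% of each region in common (the cause was not tested). With the first 50% of each DAXX list, 18 genes had a K/D and 19 a WT peak within 10 kb. No paired analysis was possible because each group has 1 library. The lists give presence above a threshold, not strength, and a missing peak does not show missing binding.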
